A study of Homo sapiens with 2 samples.

Results

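The zinc finger genes of chromosome 19 were described here from nascent transcription in cells of the line K562, which was established from a human chronic myelogenous leukaemia and has erythroid features. They were taken as all windows on chromosome 19 whose gene name is ZNF followed by digits and at most 1 letter, which leaves out antisense and pseudogene names. This rule, which uses no measured value, found 247 of the 36814 gene windows in the table and 247 of the 2135 windows on chromosome 19. The series holds 2 precision run-on sequencing (PRO-seq) libraries. In this assay, engaged polymerases in permeabilised cells add biotinylated nucleotides to their transcripts, which are then captured and sequenced. 1 library came from untreated cells and 1 from cells held in 0.1% DMSO, a drug solvent, for 1 h. Neither carried a genetic change by design, and no culture was repeated, so no value below has a replicate check and no p-value is given.

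Zinc finger genes of this kind encode proteins whose repeated fingers each read a few bases of DNA, and many of them also carry a KRAB domain. The KRAB domain recruits the corepressor TRIM28 and, through it, the histone methyltransferase SETDB1, and many KRAB zinc finger proteins silence transposable elements in this way. The family grew by tandem duplication, so that its genes lie in arrays along chromosome 19. In K562 and other cells the bodies of many of these genes carry the repressive mark that SETDB1 lays down, although the genes are transcribed.

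Each window spans 6000 bases, 3000 to either side of an annotated gene start on hg38, and holds a whole-number read count per library. The totals were 2136291 untreated and 4154920 DMSO reads, of which 24.6% and 54.1% lay outside ribosomal RNA and mitochondrial windows. Levels are given as reads or as CPM, which scales reads to the library total, and 1 CPM is 2.14 untreated or 4.15 DMSO reads. Since ribosomal RNA took unequal shares of the totals, the CPM values of the libraries do not compare them. Windows with few bases outside other windows held few reads, also where the other window lay on the opposite strand. From this, reads in bases that lie in several windows were taken as counted for none of them. Each window therefore also has a number of own bases. Of 9 erythroid markers, 8 reached 1 CPM in both libraries, among them GATA1 with 79 untreated and 304 DMSO reads and KLF1 with 234 and 807. All 8 neural markers examined had 0 untreated reads. In the DMSO library they had 7 (MAP2) to 2985 (CDR1) reads, and their summed level was 0 CPM untreated and 963 CPM with DMSO. Whether the material behind these reads also contributed to the zinc finger windows was not tested. None of 4 monocyte and granulocyte markers and none of 3 hepatocyte, epithelial and fibroblast markers reached 1 CPM in both libraries. Summed over each list, these came to 1.87 CPM untreated and 14.2 with DMSO, and to 0 and 0.481 CPM. Of the 14.2 CPM, 9.63 came from CD14, which had 0 untreated and 40 DMSO reads. ALB, EPCAM and COL1A1 had 0 untreated reads, on 6000, 83 and 1757 own bases, so the level of EPCAM is not known.

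The promoters of these genes are shown first, because the arrays differed in promoter sequence as well as in read level. Of the 247 genes, 216 had a promoter in the RefSeq table of GRCh38.p14, which gives 250 bases before and 50 bases after the gene start. Where a gene had several, the one nearest the centre of its window was taken, and in 188 of the 216 its start lay within the window. The members' promoters had a median GC content of 60.2% and 20 CpG dinucleotides, against 58.7% and 14 over all 35116 promoters of the table. In that set, and in the one of zinc finger genes outside chromosome 19, every promoter of a gene was kept. The shares below therefore compare sets that were not made alike. Only 5 of the 216 (2.31%) held TATAAA, the core of the TATA box, on either strand, against 11.5% of all promoters and 5.61% of those of zinc finger genes outside chromosome 19. The GC box core GGGCGG was in 146 (67.6%) against 45.0% and 56.5%. The core bound by ETS family factors, CCGGAAG, was in 96 (44.4%) against 10.3%, and in 82 of 285 promoters (28.8%) of zinc finger genes outside chromosome 19. An extended CCAAT box, CCAATCAG, was in 57 (26.4%) against 3.97% of all promoters and 10.5% of those of zinc finger genes elsewhere. All motifs were searched on both strands, and a match is a string of letters, not a shown binding site. No test was made of these shares, since duplicated genes share their sequence.

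The array at 19665796 to 24036404, next to the centromere on the short arm, held promoters with common stretches beyond these general motifs. The 12 letters CTGTCACTCAGG stood in 23 member promoters and in 15 of the 34848 promoters of other genes (0.043%). Among the 285 promoters of zinc finger genes outside chromosome 19 they stood in 5 (1.75%). 18 of the 23 lay in this array and 5 in the array at 11502840 to 12643098. It was always on the strand of the gene, with its first base at a median of 123 bases before the start. The stretches below show it in capitals with 20 bases on either side, 5′ to 3′. The genes are the 3 of highest and the 2 of lowest read density among those that hold it on their own strand, with the promoter start in the window and at least 1 kb of own bases: ZNF93 at chr19:19900801-19900852 (plus strand), ZNF714 at chr19:21082055-21082106 (plus strand), ZNF675 at chr19:23687274-23687325 (minus strand), ZNF492 at chr19:22634174-22634225 (plus strand) and ZNF85 at chr19:20923109-20923160 (plus strand).
ZNF93: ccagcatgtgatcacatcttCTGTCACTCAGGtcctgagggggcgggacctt
ZNF714: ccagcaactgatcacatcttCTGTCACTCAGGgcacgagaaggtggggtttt
ZNF675: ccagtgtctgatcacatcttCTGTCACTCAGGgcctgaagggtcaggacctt
ZNF492: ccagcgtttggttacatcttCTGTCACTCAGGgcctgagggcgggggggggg
ZNF85: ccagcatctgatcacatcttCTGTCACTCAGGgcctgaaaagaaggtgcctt

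In the same array TTTGTCTC, shown in capitals below, lay at or near the gene start. It was in 23 member promoters (10.6%), 21 of them in this array, against 1.54% of all promoters and 4.91% of those of zinc finger genes outside chromosome 19. Its first base was 3 bases before the start in 11 of the 21, 2 or 3 bases after it in 9, and 32 bases after it in ZNF675. Shown by the same rule are ZNF93 at chr19:19900923-19900970 (plus strand), ZNF714 at chr19:21082180-21082227 (plus strand), ZNF675 at chr19:23687163-23687200 (minus strand), ZNF85 at chr19:20923234-20923281 (plus strand) and ZNF682 at chr19:20039475-20039522 (minus strand). Read counts at genes with these letters ranged widely, from 44 untreated and 146 DMSO reads at ZNF93 to 0 and 1 at ZNF682.
ZNF93: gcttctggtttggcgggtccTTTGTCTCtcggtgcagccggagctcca
ZNF714: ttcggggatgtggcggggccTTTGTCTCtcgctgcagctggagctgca
ZNF675: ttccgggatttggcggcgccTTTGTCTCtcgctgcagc
ZNF85: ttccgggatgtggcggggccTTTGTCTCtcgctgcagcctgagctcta
ZNF682: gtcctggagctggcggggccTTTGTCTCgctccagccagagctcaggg

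Whole promoters show how these stretches are arranged. ZNF91 and ZNF93, whose proteins are known repressors of SVA and L1 retrotransposons, both held CTGTCACTCAGG, CCAATCAG, GGGCGG and TTTGTCTC, and ZNF91 also CCGGAAG. ZNF274, which is known to bind the 3′ ends of zinc finger genes and bring SETDB1 there, and ZNF787 lay in the last array and held GGGCGG and CCGGAAG but none of the other 6 motifs searched. Capitals mark matches, on either strand, to any of the 8 motifs searched in this section. The stretches are ZNF91 at chr19:23395422-23395721 (minus strand), ZNF93 at chr19:19900696-19900995 (plus strand), ZNF274 at chr19:58182811-58183110 (plus strand) and ZNF787 at chr19:56121246-56121545 (minus strand).
ZNF91: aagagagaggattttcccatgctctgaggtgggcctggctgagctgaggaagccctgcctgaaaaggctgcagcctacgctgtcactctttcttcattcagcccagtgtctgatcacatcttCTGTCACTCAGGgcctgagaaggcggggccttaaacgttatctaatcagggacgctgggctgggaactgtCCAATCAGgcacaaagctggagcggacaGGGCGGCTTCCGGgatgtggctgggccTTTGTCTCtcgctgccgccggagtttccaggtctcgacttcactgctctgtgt
ZNF93: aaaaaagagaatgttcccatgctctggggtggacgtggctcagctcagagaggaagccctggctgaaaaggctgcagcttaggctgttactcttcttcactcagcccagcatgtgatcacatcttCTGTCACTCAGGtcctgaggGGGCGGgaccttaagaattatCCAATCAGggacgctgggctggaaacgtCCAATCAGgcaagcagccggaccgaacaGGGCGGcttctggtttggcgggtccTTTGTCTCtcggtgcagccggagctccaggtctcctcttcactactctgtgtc
ZNF274: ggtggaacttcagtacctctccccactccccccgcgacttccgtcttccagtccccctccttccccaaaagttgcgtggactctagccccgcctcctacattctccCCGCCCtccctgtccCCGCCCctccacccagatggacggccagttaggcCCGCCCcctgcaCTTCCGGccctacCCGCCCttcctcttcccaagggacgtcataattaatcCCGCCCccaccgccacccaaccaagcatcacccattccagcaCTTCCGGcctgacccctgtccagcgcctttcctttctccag
ZNF787: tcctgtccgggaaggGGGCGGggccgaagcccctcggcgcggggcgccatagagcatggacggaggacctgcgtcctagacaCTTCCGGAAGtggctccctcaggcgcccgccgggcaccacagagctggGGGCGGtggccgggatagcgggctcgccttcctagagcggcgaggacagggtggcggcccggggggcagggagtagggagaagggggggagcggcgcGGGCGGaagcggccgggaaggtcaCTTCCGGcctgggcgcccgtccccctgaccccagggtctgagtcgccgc

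Another string, GGAAATGTAGT, was in 16 member promoters (7.41%) against 0.413% of all promoters and 3.16% of those of zinc finger genes elsewhere. 7 of them lay in the array at 36211602 to 37820300 and 5 in the one at 43522497 to 45079587. It is shown by the same rule in ZNF146 at chr19:36214954-36215004 (plus strand), ZNF45 at chr19:43935284-43935334 (minus strand), ZNF225 at chr19:44113230-44113280 (plus strand), ZNF284 at chr19:44072076-44072126 (plus strand) and ZNF569 at chr19:37467430-37467480 (minus strand).
ZNF146: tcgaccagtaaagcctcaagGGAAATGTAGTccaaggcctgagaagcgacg
ZNF45: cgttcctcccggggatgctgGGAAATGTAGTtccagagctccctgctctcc
ZNF225: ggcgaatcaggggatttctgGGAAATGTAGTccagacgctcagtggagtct
ZNF284: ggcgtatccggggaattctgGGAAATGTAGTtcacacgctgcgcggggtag
ZNF569: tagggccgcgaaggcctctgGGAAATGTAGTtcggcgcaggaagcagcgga

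The last array, at 55473617 to 58477016, had GGCGGGACTTCC in 14 of its 54 promoters, and 1 further member promoter held it, against 0.29% of all promoters. It lay on the strand of the gene, at a median of 21 bases before the start. In 11 of the 15 it overlapped CCGGAAG read on the opposite strand, and in 12 it overlapped GGGCGG. The stretches shown are ZNF134 at chr19:57614198-57614249 (plus strand), ZNF671 at chr19:57727616-57727667 (minus strand), ZNF17 at chr19:57411128-57411179 (plus strand), ZNF773 at chr19:57499842-57499893 (plus strand) and ZNF256 at chr19:57947678-57947729 (minus strand).
ZNF134: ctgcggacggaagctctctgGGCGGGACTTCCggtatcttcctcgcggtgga
ZNF671: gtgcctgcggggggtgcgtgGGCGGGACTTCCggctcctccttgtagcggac
ZNF17: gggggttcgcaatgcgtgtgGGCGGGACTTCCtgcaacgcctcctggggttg
ZNF773: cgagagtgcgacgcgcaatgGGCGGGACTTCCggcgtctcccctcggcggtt
ZNF256: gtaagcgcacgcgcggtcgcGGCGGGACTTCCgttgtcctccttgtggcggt

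These 4 strings, shared blocks 1 to 4 in the plots of motifs, were chosen after the members' promoters had been compared for words they share, so their counts describe the choice.

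**Figure D1:**
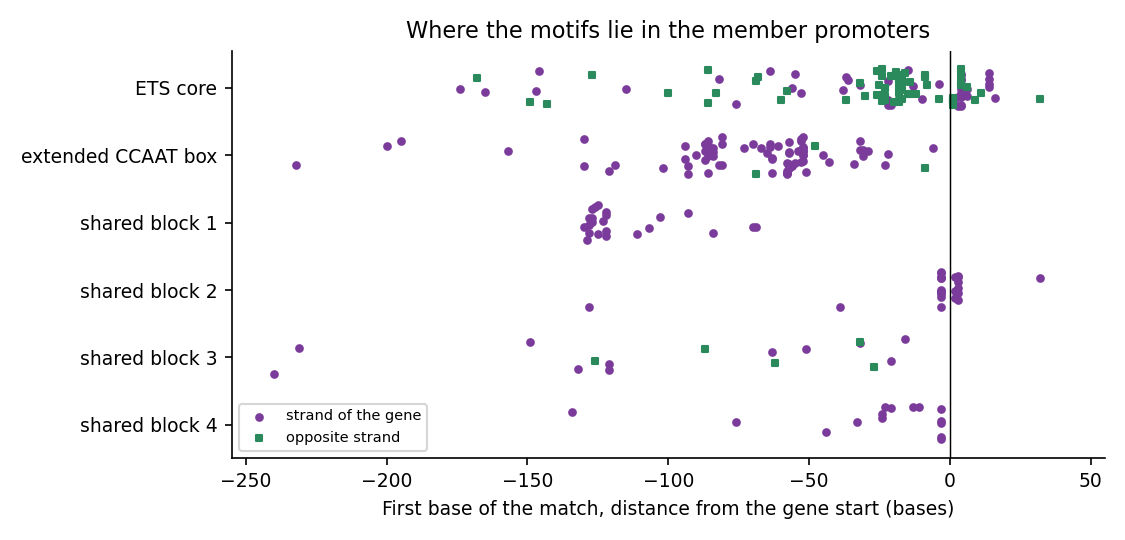
Position of each motif in the 216 member promoters, as the distance in bases from the gene start to the first base of the match; circles are matches on the strand of the gene and squares on the opposite strand. Shared block 1 is CTGTCACTCAGG, block 2 TTTGTCTC, block 3 GGAAATGTAGT and block 4 GGCGGGACTTCC; block 1 lies at a median of 123 bases and block 2 mostly within 3 bases of the start.

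**Figure D2:**
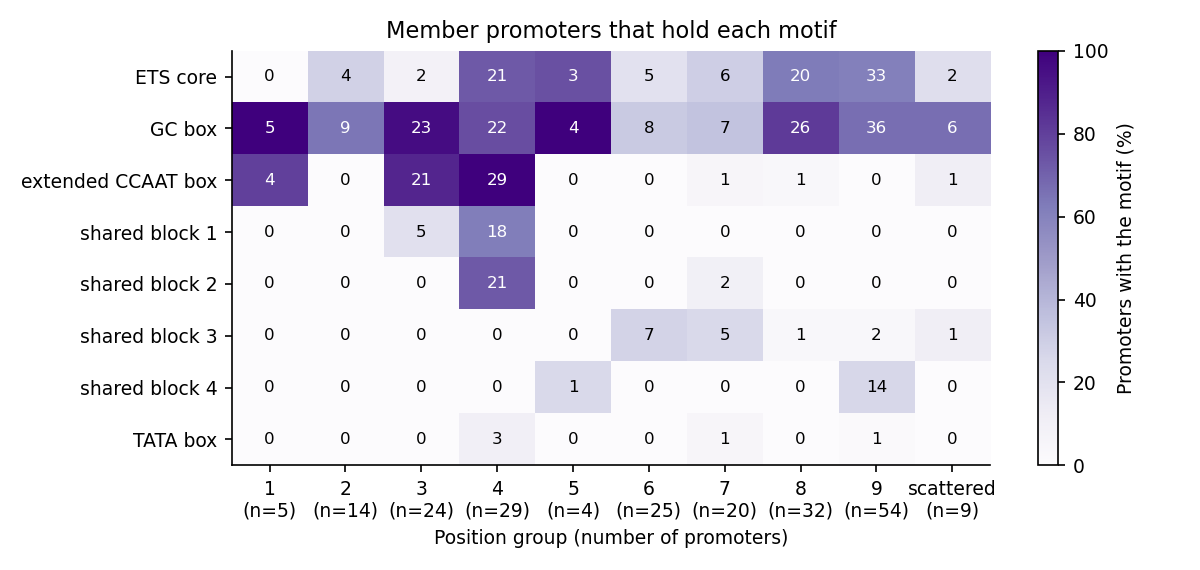
Number of member promoters with each motif in each position group (printed in the cell) and their share of the group's promoters in percent (shade). All 29 promoters of group 4 and 21 of 24 in group 3 hold the extended CCAAT box CCAATCAG, against none of 54 in group 9.

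Along the chromosome, the genes fell into 9 groups of at least 5 when cut where neighbouring windows start over 1 Mb apart, with 236 genes in the groups and 11 scattered between them. From the short-arm end, the groups held 5, 15, 25, 37, 5, 27, 24, 39 and 59 genes. Group 1 lay at 2816868 to 2947971, group 2 at 7066703 to 9796180, group 3 at 11502840 to 12643098 and group 4 at 19665796 to 24036404. On the long arm, group 5 lay at 34674639 to 34967229, group 6 at 36211602 to 37820300, group 7 at 43522497 to 45079587, group 8 at 51568283 to 53522526 and group 9 at 55473617 to 58477016. Neighbouring starts were a median of 44.1 kb apart, and the widest gap, between group 4 and the first scattered gene beyond it, was 6.19 Mb. Of the genes, 133 lay on the plus and 114 on the minus strand.

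The motifs followed these groups. CCAATCAG was in all 29 promoters of group 4, in 21 of 24 in group 3 and in 4 of 5 in group 1, against 3 of the other 158 member promoters. CCGGAAG was in 33 of 54 promoters of group 9, 20 of 32 of group 8 and 21 of 29 of group 4, but in 2 of 24 of group 3 and 0 of 5 of group 1. Group 4 had the fewest CpG dinucleotides, with a median of 10 in its 300 bases against 16 in group 3 and 25 in group 8. In 26 of the 29 promoters of group 4 at least 1 stretch of 25 bases was repeated exactly in another member's promoter, against 8 of 54 in group 9 and 67 of 216 in all. At most 21.0% of a promoter's 25-base stretches were repeated in this way, in ZNF91 and ZNF486. How reads matching several places were treated is not given in the sources used here, and the levels of genes with near-identical copies are therefore uncertain.

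Most windows of zinc finger genes with room for reads held reads, at a low level. Another RefSeq gene lies in 112 of the 247 windows, and 40 do not hold the outermost RefSeq start of the gene named. Reads in a window therefore need not come from that gene. Of the 247 windows 127 (51.4%, exact Clopper-Pearson interval 45.0 to 57.8) reached 1 CPM in both libraries, against 34.7% of all windows, 48.7% of the other 1888 windows of chromosome 19 and 50.8% of 262 zinc finger windows outside it. All intervals here are at 95% and cover counting error only. Own bases bear on this count, since 81 windows had under 1 kb of them and these held 31 untreated and 87 DMSO reads in all. Among the 166 windows with at least 1 kb, 126 (75.9%, interval 68.7 to 82.2) reached 1 CPM in both libraries. The background over all windows with 1 kb was 42.7%, and the shares were 62.6% for other windows of chromosome 19 and 71.9% for zinc finger genes elsewhere. Only 4 of the 166 had no read in either library, against a background of 10.1%. Among zinc finger genes elsewhere it was 5 of 171, and among other windows of chromosome 19 it was 74 of 1330.

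High levels were rare. The median of these 166 windows was 12 untreated and 39 DMSO reads, against 19 and 86 in zinc finger windows outside chromosome 19, 10 and 37 in other windows of chromosome 19, and 1 and 8 over all windows with 1 kb. Per kb of own bases, the median level was 1.09 CPM untreated and 1.60 CPM with DMSO. The highest of the 166 reached a mean of 26.0 CPM per kb over both libraries and the 90th percentile was 5.79, against 14.4 in other windows of chromosome 19 and 11.6 in zinc finger genes elsewhere. Thus their upper range was lower in these libraries, while their share of windows read was not. The 247 windows made up 11.6% of the windows of chromosome 19 and held 7.01% of its untreated and 5.99% of its DMSO reads. Ranks agreed between the libraries over the 166 windows with a Spearman's rho of 0.939, given as a description across genes, which are not replicates.

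**Figure D3:**
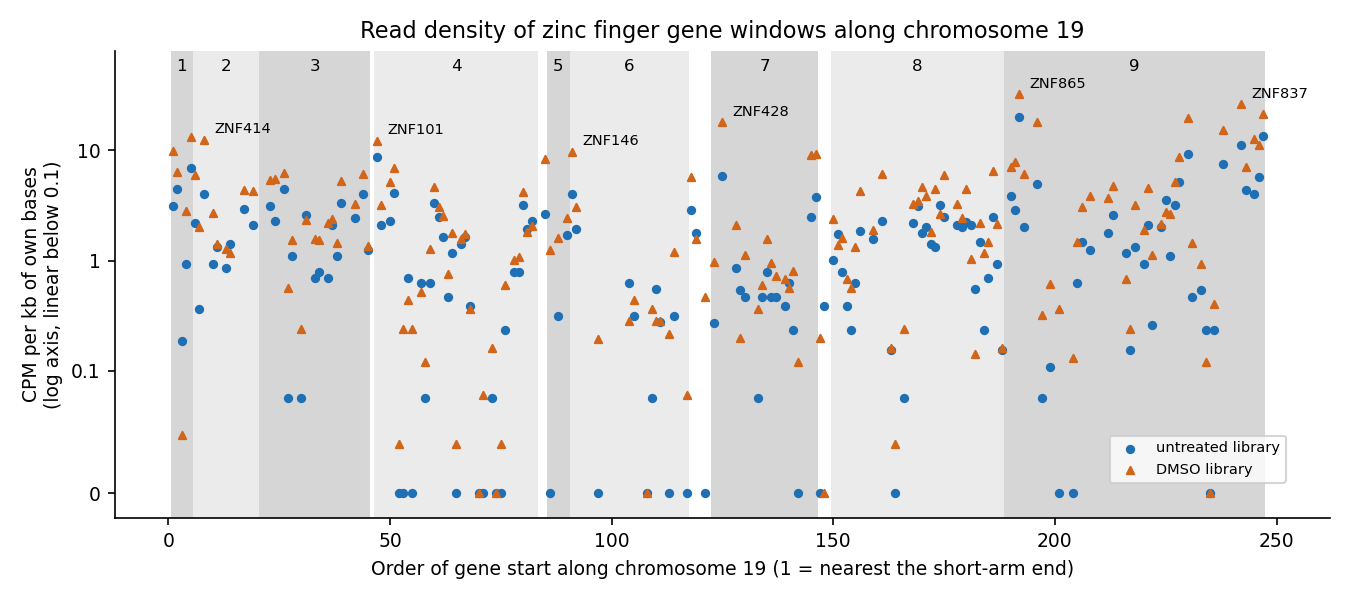
CPM per kb of own bases (vertical, log axis, linear below 0.1) of the 166 windows with at least 1 kb of own bases, in order of their start along chromosome 19, for the untreated (circles) and DMSO (triangles) library; shaded bands 1 to 9 are the position groups. Values in both libraries move together along the chromosome, with group 6 low (median 0.329 CPM per kb) and the most densely read windows, ZNF865 and ZNF837, in group 9.

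The 10 windows of highest mean CPM held 27.2% of the members' untreated and 31.1% of their DMSO reads, and 7 of them lay in group 9. ZNF837 (chromosome 19, 58378031 to 58384030, minus strand) had 129 untreated and 587 DMSO reads, 60.4 and 141 CPM. Its window has 5369 own bases and also holds the uncharacterised RefSeq gene LOC105372484. ZNF865 (55602405 to 55608404) had 146 and 458 reads and the highest density, 19.9 CPM per kb untreated and 32.1 with DMSO. Its window shares bases with those of FIZ1 and ZNF524 and also holds part of ZNF524. ZNF587 (57846859 to 57852858) had 119 and 487 reads, and ZNF787 (56118296 to 56124295) 64 and 449.

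ZNF274 (58180029 to 58186028, plus strand), the gene whose protein binds other zinc finger genes, was among these with 97 untreated and 385 DMSO reads (exact Poisson intervals 78.7 to 118 and 347 to 425). No other RefSeq gene lies in its window. ZNF324, with 74 and 278 reads, and ZNF324B, with 51 and 317, lie further toward the long-arm end, with windows from 58464045 and 58448611. They are paralogs. Next to them ZNF446 had 50 and 156 reads on 1747 own bases, a mean of 17.4 CPM per kb, in a window that also holds part of ZNF324.

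Outside group 9 the leading genes were ZNF428 in group 7, ZNF77 in group 1 and ZNF101 in group 4. ZNF428 had 75 untreated and 452 DMSO reads, in a window that also holds part of CADM4. ZNF77 had 88 and 331 reads and ZNF101 96 and 260. ZNF101 lies at the short-arm end of group 4 and shares bases with ATP13A1. The other groups were led by ZNF414 (group 2) with 52 and 312 reads, ZNF440 (group 3) with 57 and 155, ZNF792 (group 5) with 22 and 61, ZNF146 (group 6) with 52 and 243 and ZNF761 (group 8) with 32 and 162. ZNF146 encodes a protein made almost wholly of fingers, without a KRAB domain. Of the scattered genes ZNF507 led, with 34 and 207 reads.

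Read levels differed between the groups. Per kb of own bases, the median of group 1 was 3.12 CPM untreated and 6.30 with DMSO over 5 windows, and that of group 9 was 1.79 and 3.21 over 37. Groups 2, 3 and 8 followed, with 1.40 and 2.73, 1.68 and 2.27, and 1.48 and 2.17 CPM per kb. Group 4 had 0.702 and 1.00 over 31 windows, group 7 0.468 and 0.881 over 16 and group 5 0.312 and 1.60 over 3. Group 6 was lowest in both libraries, with 0.294 untreated and 0.285 with DMSO over 12 windows, although its ZNF146 reached a mean of 6.90. Genes within a group spread far more than these medians differ, in group 4 from 0 to 10.5 CPM per kb and in group 9 from 0 to 26.0. No test of the group differences was made, since genes of an array are not replicates.

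The share of genes read gave a like picture. At least 1 CPM in both libraries was reached by 9 of 9 windows with 1 kb in group 2, 14 of 16 in group 3, 26 of 31 in group 8, 30 of 37 in group 9, 12 of 16 in group 7, 21 of 31 in group 4 and 5 of 12 in group 6. In groups 1 and 5 it was 4 of 5 and 2 of 3. The exact intervals of group 6 (15.2 to 72.3%) and group 2 (66.4 to 100%) overlap. Counting windows of any own length, group 6 had 5 of 27, but 15 of its 27 windows had under 1 kb of own bases. In that group 4 pairs of windows on opposite strands overlap so far that each keeps 37 to 460 own bases, ZNF382 with ZNF529, ZNF345 with ZNF790, ZNF829 with ZNF568 and ZNF383 with ZNF585B, the last of which holds none of its RefSeq gene. For these the table holds little that could be counted, and their level is not known from it.

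Genes next to each other had related levels. Over 104 pairs of neighbouring members of a group, both with 1 kb of own bases, Spearman's rho of read density was 0.512. In 35 pairs both genes lay above the median of the 166 windows, in 36 both lay at or below it and in 33 they lay on either side. This is a description: the pairs share libraries, genes and base composition. Within the spans of groups 4 and 6, windows that are not members had median densities of 0.129 CPM per kb (36 windows) and 0.637 (19 windows), against 0.891 and 0.329 for the members.

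Some windows of zinc finger genes were close to unread. Of the 166 windows with 1 kb of own bases, 20 had fewer than 5 reads in both libraries together, 7 of them in group 4 and 6 in group 6. The share of all windows with so few reads was not computed. Over all windows with 1 kb the median was 1 untreated and 8 DMSO reads, so these 20 are not shown to set the members apart. The 7 in group 4 have all 6000 bases to themselves. They were ZNF676 and ZNF99 with no read in either library, ZNF682, ZNF429 and ZNF723 with 0 untreated and 1 DMSO read each, ZNF729 with 0 and 2, and ZNF85 with 1 and 3. The window of ZNF429 holds none of the RefSeq gene of that name, so its reads do not give that gene's level, and in those of ZNF676 and ZNF723 the outermost RefSeq start lies outside. By the 1-sided rule that a count of 0 allows up to 3 reads, used here in place of the interval, the limit is 1.40 CPM in the untreated and 0.722 CPM in the DMSO library. ZNF875 in group 6 and ZNF606 in group 9 also had no read, on 2784 and 1289 own bases. In the same group 4, ZNF93 had 44 untreated and 146 DMSO reads and ZNF91 10 and 27 (intervals 4.80 to 18.4 and 17.8 to 39.3). ZNF93 was read more densely than ZNF91 in both libraries, by 4.07 against 0.780 CPM per kb untreated and 6.94 against 1.08 with DMSO.

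Promoter features were set beside read density in the 127 genes whose promoter start lies in a window with 1 kb of own bases. Spearman's rho with GC content was 0.365 and with the number of CpG dinucleotides 0.308, across genes and with no p, since members of an array share both sequence and position. The 62 genes above the median GC content had a median of 2.83 CPM per kb and the other 65 had 1.13. Genes with GGGCGG had 2.15 (87 genes) and those without 0.965 (40), and among the genes that are no members the same medians were 2.62 and 0.118. Among the members this order was reversed within group 4, at 0.912 with GGGCGG (18 genes) and 2.77 without (5). It was kept within group 8, at 2.04 (16) and 0.755 (6), and group 9, at 3.24 (22) and 1.64 (8). The box and the position group were not separated. For CCGGAAG, 60 members with it had 1.52 and 67 without had 1.87, whereas other genes had 4.39 with it (1099 genes) and 0.396 without (10161). The members' order was not the same in each group. Group 4 had 0.932 with CCGGAAG (17 genes) and 3.33 without (6), group 8 had 1.78 (14) and 1.28 (8), and group 9 had 2.71 (20) and 2.65 (10). Members with TTTGTCTC had 0.802 (18 genes) and without it 1.84 (109). Within group 4 the same split gave 0.891 (17 genes) and 1.78 (6), and both sides started at 0.0201 and reached 5.50 and 10.5.

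The comparison of the DMSO with the untreated library asks how far solvent-treated cells resemble untreated cells at these genes, and it compares 2 libraries rather than 2 conditions. Relative to the median window of the whole table, 40 of the 55 zinc finger genes with enough reads lay lower in the DMSO library. All 13 of groups 3 and 4 were among them. By library totals, not centred, 53 of the 55 lay higher, but so did the median window, at 1.27 in log2. Relative to it on that scale, 40 of the 55 again lay lower. Ratios were taken for the 55 members whose windows averaged at least 5 CPM and held at least 100 reads in all. This floor was passed by 22.3% of the members and 17.9% of all windows. Among other windows of chromosome 19 the share was 28.5%, and among zinc finger windows outside it 33.6%. Counts were scaled by trimmed means (TMM), so that 3.81 DMSO reads count as equal to 1 untreated read. The median of all windows past the floor was then 0.31 in log2, and all ratios below are relative to it. Just inside the floor lay ZNF565 with 25 untreated and 77 DMSO reads and ZNF14 with 27 and 80, and just outside it ZNF550 with 17 and 80 and ZNF805 with 19 and 77.

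The median log2 ratio of the 55 members was -0.33, with 40 below the median window and 15 above, where the background above it is 50%. Not centred, the median was -0.017 with TMM (28 below 0 and 27 above) and 0.95 with library totals (2 below and 53 above), so its sign is not kept on the scale of totals. The median of all windows past the floor was 1.27 on that scale. Relative to it the members' median was -0.32, with 40 below and 15 above. With the DMSO library thinned to the untreated number of reads outside ribosomal RNA and mitochondrial windows, 12 members passed the floor, and their centred median was -0.036 with 6 below and 6 above. Other windows of chromosome 19 had a median of -0.08 (538 windows) and zinc finger genes outside it 0.12 (88 windows, 57 above and 31 below). No member was at least 2-fold higher with DMSO, against a background of 7.04%, and 3 (5.45%) were at least 2-fold lower, against 7.97%. The members' ratios ranged from -1.61 to 0.59. No member's interval lay wholly beyond 2-fold higher, against 1.41%. Of the 55 intervals 35 held 0, 18 lay wholly below it and 2 wholly above, with counting error alone considered, where 24.5% and 22.5% of all windows past the floor did. The 6 erythroid markers past the floor also lay below the median window, with a median of -0.49, and the neural markers had reads in the DMSO library alone; the part of either in the members' ratios was not tested.

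**Figure D4:**
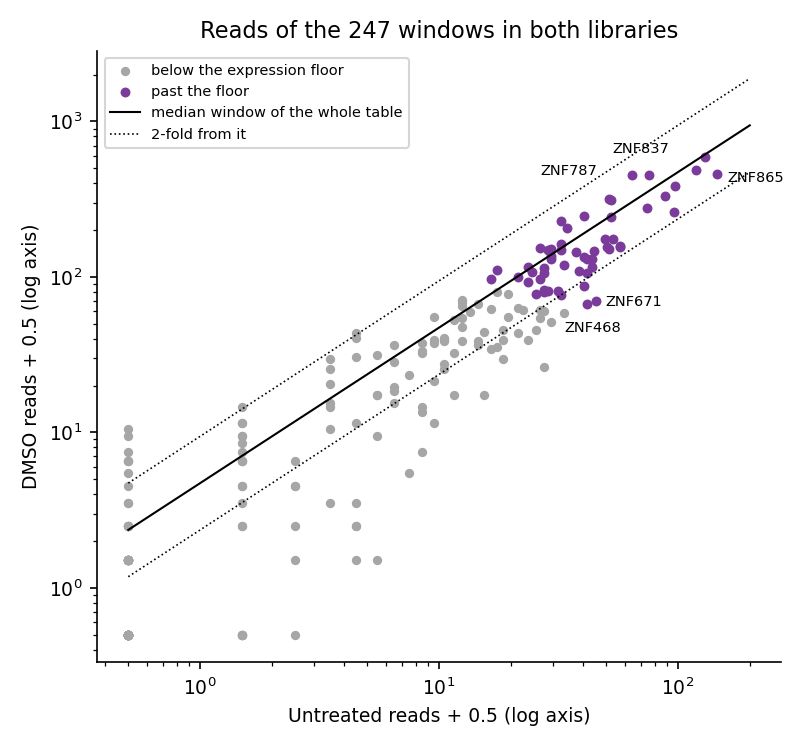
DMSO against untreated reads (both plus 0.5, log axes) of the 247 windows, with the 55 past the expression floor in purple. The solid line is the ratio of the median window of the whole table and dotted lines lie 2-fold from it. Of the 55, 40 lie below the solid line and 3 beyond the lower dotted line. Library totals, not centred, would put 2 of 55 below an equal ratio, with the median window itself at 1.27 in log2.

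The 3 lowest members were ZNF671, ZNF468 and ZNF701. ZNF671 (57724625 to 57730624, minus strand), in group 9, had 45 reads untreated and 69 with DMSO, which is -1.61 in log2 (interval -2.18 to -1.05). It was the 1 member whose interval lay wholly beyond 2-fold, against 2.78% of all windows past the floor. ZNF468 had 41 and 66 reads (-1.54, interval -2.13 to -0.95) and ZNF701 40 and 87 (-1.11, interval -1.67 to -0.54), both in group 8. The windows of ZNF468 and ZNF701 do not hold their RefSeq gene; they lie over parts of ZNF320 and ZNF808, so that their reads cannot be given to the gene named. The window of ZNF320 itself had 32 and 149 reads (-0.02). In all, 20 of the 247 windows hold none of the RefSeq gene of their name, 5 of them past the floor. Among the other 50 the median was -0.30, with 36 below, and ZNF671 was the 1 at least 2-fold lower.

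The next lowest were ZNF431 with 32 and 76 reads (-0.98), ZNF675 with 41 and 105 (-0.88), both in group 4, and ZNF709 with 31 and 81 (-0.85) in group 3, whose window holds none of the RefSeq gene ZNF709. The protein of ZNF675 is known to bind the signalling adaptor TRAF6. At the other end, ZNF180 had 32 and 228 reads (0.59, interval 0.06 to 1.18) and ZNF787 64 and 449 (0.57, interval 0.19 to 0.97), and these 2 intervals lay above 0. ZNF28 had 17 and 110 reads (0.45) in a window over ZNF468 and ZNF320 that does not hold ZNF28 as RefSeq places it. ZNF324B stood at 0.40, ZNF554 at 0.39 with 40 and 247 reads and ZNF507 at 0.36, each with an interval that holds 0.

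By position, groups 3 and 4 lay below the median window in every member past the floor. Group 4 had a median of -0.80 over 7 genes, in the order of the chromosome ZNF101 (-0.80), ZNF14 (-0.67), ZNF253 (-0.09), ZNF93 (-0.51), ZNF714 (-0.80), ZNF431 and ZNF675. Group 3 had -0.66 over 6 genes, ZNF823 (-0.49), ZNF441 (-0.01), ZNF440 (-0.79), ZNF442 (-0.64), ZNF709 and ZNF791 (-0.67); without ZNF709 it was -0.64 over 5 genes, all below. With a floor of 1 CPM and 20 reads, group 4 had a median of -0.69 with 18 of 19 genes below, and group 3 of -0.62 with 12 of 14 below. Not centred, the medians were -0.49 and -0.35 with TMM but 0.48 and 0.62 with library totals, where all groups shift upward. On the scale of totals the median of all windows past the floor was 1.27. The summed reads of all 37 genes of group 4, with no floor, were 502 untreated and 1372 DMSO, or 2.73 DMSO reads per untreated read, and those of group 3 386 and 1171, or 3.03.

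The other groups lay nearer the median window. Group 7 had 193 untreated and 1011 DMSO reads in all, 5.24 DMSO reads per untreated read, and its 3 genes past the floor, ZNF428 (0.35), ZNF180 and ZNF296 (0.01), lay above the median window. With the lower floor 6 of its 11 genes did, with a median of 0.09. Group 9 had a median of -0.25 (17 genes, 13 below), group 8 -0.08 (11 genes, 7 below) and group 2 -0.05 (4 genes, 2 below). Group 1 had -0.33 over 3 genes and 0.10 over 4 with the lower floor, so its sign depends on the floor, as does that of group 6 with -0.31 over 2 genes and 0.10 over 3. With the trend of the ratio over read count subtracted, groups 3 and 4 stood at -0.54 and -0.61, group 7 at 0.26 and group 9 at -0.28.

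**Figure D5:**
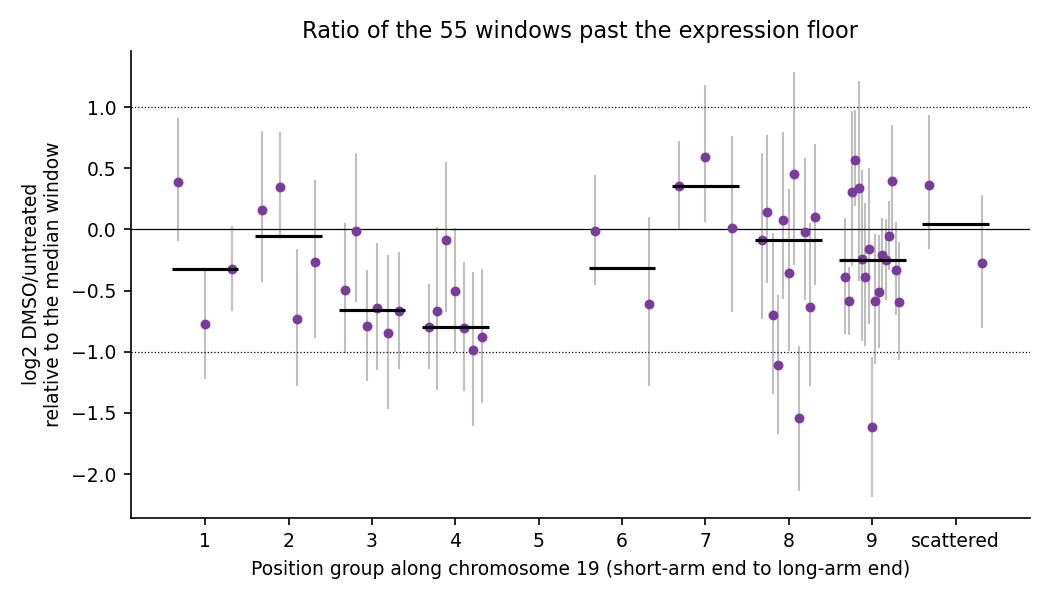
log2 DMSO/untreated ratio, relative to the median window of the whole table, of each of the 55 members past the expression floor by position group; grey bars are exact intervals for counting error, black bars the median of a group and dotted lines 2-fold. All 6 points of group 3 and all 7 of group 4 lie below 0, and group 5 has no member past the floor. By library totals, not centred, the medians of groups 3 and 4 are 0.62 and 0.48, against 1.27 for all windows past the floor.

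The promoters of groups 3 and 4 share the CCAATCAG box, and the ratio was set beside it. Only genes whose promoter start lies in their window were used, so not all of the 55 are covered. All 14 such members past the floor whose promoter holds CCAATCAG lay below the median window, with a median of -0.67. Of the 33 without it, 20 did, with a median of -0.16. ZNF709 (-0.85) also has a promoter with the box, but its start lies outside the window. Among genes that are no members, 192 with CCAATCAG had a median of 0.10 and 3604 without it 0.13. The box and the position group cannot be told apart among the members, since nearly all promoters with the box lie in groups 1, 3 and 4. Windows of other genes within the spans of groups 3 and 4 were few past the floor, 3 with a median of 0.22 and 1 at -1.21.

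Some members had reads in 1 library alone. In 29 members (11.7%) there were DMSO reads and no untreated read, against a background of 29.5%, and 6 had untreated but no DMSO reads. The share of all windows with untreated reads alone was not computed, so these 6 are not shown to be few or many. The most DMSO reads against 0 were 10 at ZNF302, 9 at ZNF471 and 7 at ZNF628, the last on 134 own bases. With the 3 reads that a count of 0 allows, none of these would lie above the median window.

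Genes of the silencing machinery that KRAB zinc finger proteins recruit were read as well, though the windows of several could not be. Of 17 listed cofactors 16 had a window and 8 reached 1 CPM in both libraries. TRIM28, the corepressor bound by KRAB domains, which also lies on chromosome 19, had 63 reads untreated and 787 with DMSO, which is 1.40 in log2. It was the 1 of 4 cofactors past the floor that was at least 2-fold higher, where 7.04% of all windows past the floor were. No interval is given for its ratio. The remodeller gene CHD4 stood at -0.01 (27 and 127 reads), the histone deacetylase gene HDAC1 at 0.02 (46 and 220) and MPHOSPH8, of the HUSH silencing complex, at -0.10 (31 and 137). SETDB1 had 13 and 56 reads, below the floor. CBX5, DNMT1, PPHLN1 and UHRF1 had no read, on 0, 45, 97 and 183 own bases, and their level is not known from the table. The cofactors were listed for this report with other results of these data known, and no test was made of the list.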

How the data were processed

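The authors deposited whole-number read counts over 6 kb windows around gene starts on hg38, made with Bowtie2 2.3.5 and featureCounts 2.0.1; these names are per the submitters' processing notes, and the handling of strand and of reads matching several places is not given in the sources used here. The authors' deposited TPM values equal CPM of those counts (tolerance 1e-06) and were not used further. Counts were scaled on the whole table by TMM, as computed in R 4.3.3 with edgeR 4.0.16, with a prior count of 0.5 reads and centring on the median window past the floor. Intervals at 95% are exact and cover counting error only, as the labels name no molecular identifiers. Own bases of a window are those in no other window. Promoters came from RefSeq (GRCh38.p14). Protein sequences were not used here, so a planned naming of the genes with most fingers was left out. The shared promoter blocks were chosen after the promoters were read. Each treatment had 1 library, so no test was made. The ratio and interval code was tested on simulated data. The members, lists and rules were chosen with earlier results of these data known; named genes are the 10 of highest mean CPM, 5 of highest density, 6 highest and 6 lowest ratios, the leading gene of each position group, 3 with most DMSO reads against 0, 3 with most own bases and no read, and ZNF91, ZNF93 and ZNF274; others were chosen after their values were seen. The list of lymphoid markers is not reported here.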

Additional observations from a re-analysis of the deposited data

How the results depend on the processing

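No paired analysis was possible because the untreated and the DMSO cells gave 1 library each, and no library could be left out. The median log2 ratio of the members (-0.33) was -0.017 with TMM, -0.032 with DESeq2 1.42.0 size factors and -0.043 with upper quartile scaling when not centred, 0.95 with library totals not centred, and -0.036 with the DMSO library thinned to the untreated reads outside ribosomal RNA and mitochondrial windows, which left 12 members past the floor. Under the other settings it lay between -0.33 and -0.28. Members at least 2-fold higher (0) numbered 26 with library totals not centred, where 66.0% of all windows were, 3 at a floor of 1 CPM and 20 reads, against 12.7%, and 1 at 1.5-fold. Members at least 2-fold lower (3) numbered 0 with library totals not centred, after thinning and at 20 CPM and 400 reads, 17 at the floor of 1 CPM and 20 reads, against 12.2% of all windows, 19 at 1.5-fold, and 1 both among windows that hold the outermost start of their RefSeq gene (45 past the floor) and among those that hold any of it (50), which were chosen after the data were seen. At 1.5-fold 18.6% of all windows were higher and 19.6% lower. Past the floor were 120 members at the lower and 7 at the higher of these floors, against 55. ZNF701 reversed to 0.16 with library totals not centred, where the median of all windows past the floor was 1.27. Of 259 recomputed ratios of 28 named members, 225 stayed within their intervals. Position groups with at least 50% of their members read in both libraries (7 of 9) were 4 of 6 when cut at 2 Mb and 2 of 9 at 5 CPM. Beyond the change in scale, floor, depth or cut that each setting makes, the cause was not tested.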
